A study of Mus musculus with 12 samples.

Results

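A set of 10 genes known as effectors of type I interferon was followed through the transcriptome of IEC4.1 cells: Rsad2, Cmpk2, Mx1, Mx2, Ifi44, Ifi35, Rtp4, Xaf1, Bst2 and Samhd1. Members were taken by gene symbol. Of the 10 genes, 8 had a row among the 15002 genes of the count tables, and Mx1 and Mx2 were not analysed here. IEC4.1 is a line of mouse intestinal epithelial cells, labelled as wild type in the siR_Ctrl groups and as a knockdown in the siR_Nostrill groups. All cells had been transfected for 24 h, either with a scrambled control siRNA (siR_Ctrl) or with a pool of 3 siRNAs, at 40 nM each, against the long noncoding RNA Nostrill (siR_Nostrill). Each kind of cell was then kept without interferon or exposed to IFN-γ, which the study's methods put at 1 ng/ml for 4 h. The 4 groups, of 3 libraries each, were siR_Ctrl and siR_Nostrill cells and the same cells given IFN-γ (siR_Ctrl + IFN-γ and siR_Nostrill + IFN-γ). All come from 1 cell line and 1 siRNA pool, and the tables hold no value for Nostrill itself, so the depth of the knockdown was not checked.

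Type I interferons such as IFN-β bind the receptor made of Ifnar1 and Ifnar2, whose kinases Jak1 and Tyk2 lead to the assembly of the complex ISGF3. Stat2 and Irf9 are parts of that complex, which binds interferon-stimulated response elements (ISRE) in front of genes such as those studied here. IFN-γ, the type II interferon, binds a different receptor (Ifngr1 and Ifngr2) and acts mainly through gamma-activated sites (GAS). Many genes answer to both kinds of interferon. The members act at several steps of a viral life cycle: Rsad2 (viperin) makes a chain-terminating nucleotide, Samhd1 degrades the deoxynucleotides that reverse transcription needs, and Bst2 (tetherin) holds budding particles at the membrane.

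The siRNA pool is shown because siR_Nostrill, without IFN-γ, is the treatment set against IFN-γ here. The sense strands, from 5′ to 3′, were as follows.
Nostrill-1: ccugggaagaagcauuaau
Nostrill-2: ccaccaggaacacacaaau
Nostrill-3: gccuauaagucguucuaau

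RefSeq promoters (GRCm38.p6) were matched by symbol for 7 of the 8 genes, and the 250 bases before the start site were searched on both strands for the letters of the ISRE core (GAAA, any 2 bases, GAAA) and of the GAS (TTCNNNGAA). For Cmpk2 (chr12:26468965-26469214) and Xaf1 (chr11:72301379-72301628) this window runs past the gene start given below, so it is not all upstream of that start. The ISRE core letters were found for Bst2 and Rsad2, 2 of 7 genes, and in 2.98% of all 32851 promoters. The GAS letters were found for Bst2 and Samhd1, against 7.02% of all promoters. The stretches that hold these letters are printed because they are the members' only matches in the window. All 3 genes lie on the minus strand, and the capitals mark the ISRE core for Bst2 and Rsad2 and the GAS for Samhd1.
Bst2: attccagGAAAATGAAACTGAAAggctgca
Rsad2: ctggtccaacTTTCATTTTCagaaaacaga
Samhd1: acaccaccctTTCGGAGAAacacaagggcg
The Bst2 stretch (chr8:71537580-71537609) runs from -137 to -108 relative to the start site and holds a pair of overlapping ISRE cores; its GAS match, from -136 to -128, overlaps the first of them. The Rsad2 stretch (chr12:26456553-26456582) spans -130 to -101 and reads the ISRE core on the opposite strand. The Samhd1 stretch (chr2:157135312-157135341) spans -245 to -216.

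Rsad2 (gene ID 58185, chromosome 12, 26442743 to 26456452, GRCm38.p6) and Cmpk2 (gene ID 22169, chromosome 12, 26469117 to 26479837), a nucleotide kinase of mitochondria, are neighbours with 12664 bases between them. Ifi35 (gene ID 70110, 101448412 to 101458701), a leucine zipper protein, and Xaf1 (gene ID 327959, 72301461 to 72313733), which binds the inhibitor of apoptosis Xiap, both lie on chromosome 11. Ifi44 (gene ID 99899), a cytoplasmic interferon-induced protein, lies on chromosome 3 from 151730922 to 151749910, and Rtp4 (gene ID 67775), a zinc finger protein that acts as a receptor chaperone and against viruses, on chromosome 16 from 23520219 to 23614222. Bst2 (gene ID 69550) lies on chromosome 8 from 71534255 to 71537472 and Samhd1 (gene ID 56045) on chromosome 2 from 157097534 to 157135096.

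The libraries held from 17824306 to 19093204 estimated counts. The label of epithelial cells was set against marker genes. Epcam, Cdh1 and Cldn4 had no row that was analysed here. Krt8, Krt18, Vil1 and Cdx2 stayed at or below 0.28 FPKM (read fragments scaled to transcript length and library size) in all 12 libraries. Krt19 ran from 0.91 to 2.76 FPKM. The 5 epithelial markers measured, of 8 listed, summed to between 1.23 and 3.05 FPKM per library and the 6 mesenchymal markers to between 1849 and 2339 FPKM, most of it Vim, so the markers do not bear out the epithelial label. The leukocyte markers, 5 measured of 8 listed, summed to between 1.35 and 2.65 FPKM. Ptprc was at 0.01 FPKM or less and Cd68 at 0.91 to 2.07 FPKM. Libraries of 1 group differed in how their counts depended on transcript length, with an absolute Spearman correlation between deviation and length across genes from 0.226 to 0.836. The shortest members, Bst2 (effective length 575 bases), Rtp4 (928 bases) and Ifi35 (1127 bases), are the most exposed to that difference, and their values for siR_Nostrill without IFN-γ are also given with the trend removed.

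IFN-γ raised all 8 measured members in siR_Ctrl cells. By the quasi-likelihood test of edgeR, adjusted by the Benjamini-Hochberg method over 11900 genes, 8 of 8 were higher at an adjusted p below 0.05, against 4.71% of all genes tested. The members fell into a low and a high class. Rsad2, Cmpk2 and Ifi44 stayed below 1.2 FPKM in every library, whereas Rtp4, Xaf1, Ifi35, Bst2 and Samhd1 reached 33 to 284 FPKM with IFN-γ. The low genes passed the filter on low counts only through the groups with IFN-γ, where they are high, so they had to differ and their calls are only a description. The high class passed it in the libraries without IFN-γ alone, and 5 of 5 were called, with a median log2 fold change of 1.90, beside -0.0085 for all genes. In bulk RNA, a change in the number of responding cells and a change in RNA per cell cannot be told apart. The summed mesenchymal markers ran from 1882 to 2093 FPKM in siR_Ctrl libraries and from 2285 to 2339 FPKM with IFN-γ. The higher sum is that of Vim, at a mean of 1621 and then 1997 FPKM, while the means of Col1a1 (257 and 230 FPKM), Col3a1 (75.3 and 55.1 FPKM), Pdgfra (17.2 and 11.3 FPKM) and Pdgfrb (16.5 and 12.1 FPKM) were lower with IFN-γ. None of the 5 was called in edgeR (adjusted p from 0.0819 for Vim to 0.841 for Col1a1), and the part of these genes in the result was not tested. Thy1, the other marker of the list, had means of 0.0133 FPKM in siR_Ctrl libraries and 0.0233 FPKM with IFN-γ.

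**Figure D1:**
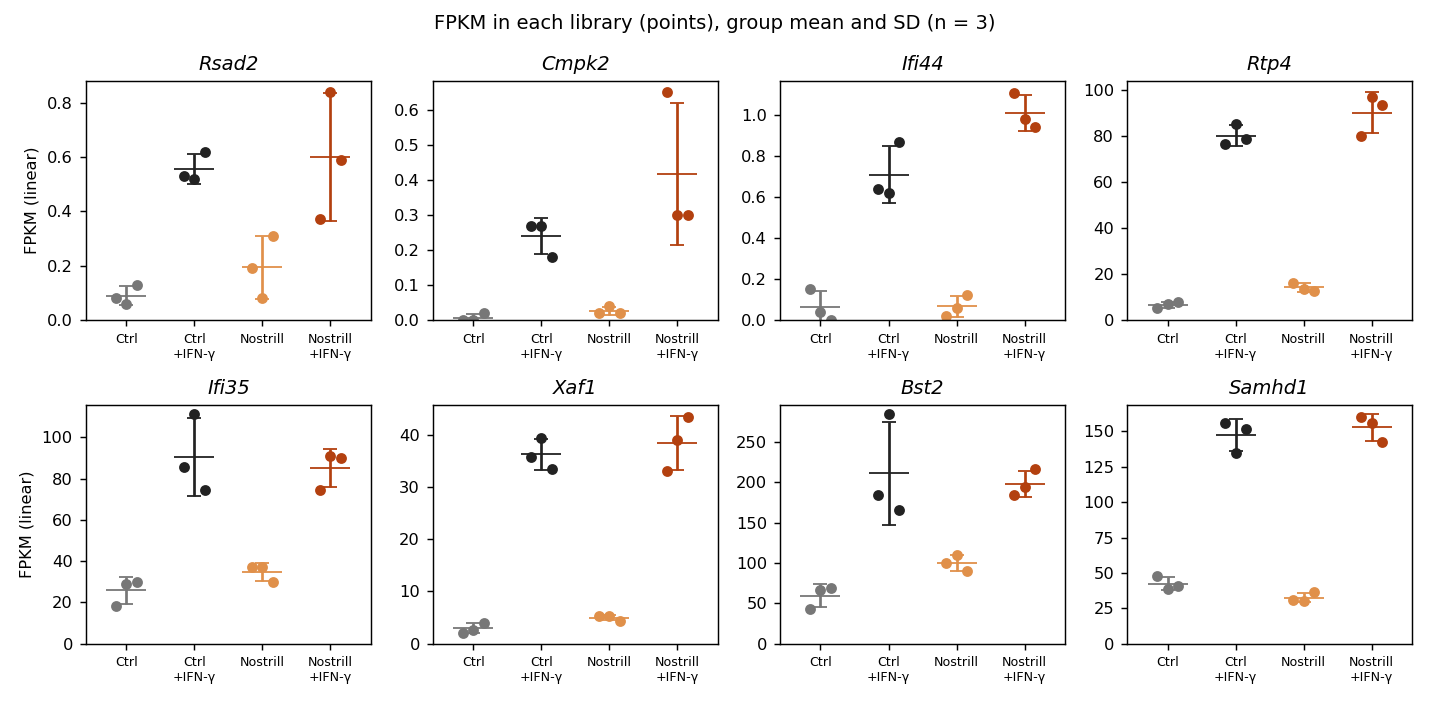
FPKM of each of the 8 measured genes (vertical axes, linear, from 0) in the 4 groups (horizontal axes); points are libraries, long bars the group means and error bars the SD of 3 libraries. With IFN-γ every library lies above every library without it, for each gene and each siRNA. Without IFN-γ, the siR_Nostrill libraries overlap those of siR_Ctrl for Rsad2, Cmpk2, Ifi44 and Ifi35. The siR_Nostrill libraries lie above those of siR_Ctrl for Rtp4, Xaf1 and Bst2 and below them for Samhd1.

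Rtp4 stood at 5.20, 6.75 and 7.87 FPKM in siR_Ctrl cells and at 76.4, 85.2 and 78.7 FPKM with IFN-γ. Its groups were far apart, and the log2 fold change was 3.50 (standard error, SE, 0.20; adjusted p = 2.73e-07, edgeR). Xaf1 went from 2.09, 2.71 and 3.99 FPKM to 35.8, 39.4 and 33.4 FPKM, a log2 fold change of 3.73 (SE 0.20, adjusted p = 1.80e-07, edgeR). Rtp4 and Xaf1 were thus low genes at rest that reached 12.1 and 12.3 times their mean FPKM.

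The other members of the high class were already well expressed without IFN-γ. Samhd1 stood at 47.8, 38.9 and 40.5 FPKM in siR_Ctrl cells and at 156, 134 and 152 FPKM with IFN-γ (log2 fold change 1.87, SE 0.086, adjusted p = 3.93e-08, edgeR). Bst2 went from 43.4, 66.5 and 69.3 FPKM to 184, 284 and 166 FPKM (log2 fold change 1.90, SE 0.27, adjusted p = 0.000843, edgeR). This comparison also varied with transcript length, with a Spearman correlation of -0.466 across genes. With that trend removed, the log2 fold change of Bst2 was 1.68 (SE 0.084, adjusted p = 1.76e-09, edgeR). Ifi35 went from 18.4, 28.9 and 30.1 FPKM to 85.8, 111 and 74.5 FPKM (log2 fold change 1.88, SE 0.24, adjusted p = 0.000403, edgeR). The groups did not overlap for any gene of the high class, against 7.5% of all genes as higher. Those of Rsad2, Cmpk2 and Ifi44 did not overlap either. For these low genes that is only a description, since they passed the filter only through the groups with IFN-γ. The ratio of mean FPKM was 3.48 for Samhd1, 3.53 for Bst2 and 3.50 for Ifi35. In Bst2 and Ifi35 a single library stood apart in each group, siR_Ctrl replicate 1 as the lowest and siR_Ctrl + IFN-γ replicate 2 as the highest.

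For the low class the counts carry the result. Rsad2 had 5, 4 and 8 counts in siR_Ctrl cells and 35, 35 and 41 with IFN-γ, a ratio of 6.28 per read counted (95% counting interval 3.75 to 11.2, exact). Ifi44 had 7, 2 and 0 counts and then 31, 31 and 43, a ratio of 11.2 (5.69 to 25.2). Its fitted log2 fold change of 3.50 was 4.95 without siR_Ctrl replicate 1, which holds 7 of the 9 counts of its group. Cmpk2 had 0, 0 and 1 counts and then 15, 15 and 10. Its fitted log2 fold change of 4.89 was 6.75 without siR_Ctrl replicate 3. Its ratio of 38.4 has an interval from 6.52 to 1560, because the lower group holds 1 count in all. These intervals cover counting error only. All of these genes were detected in every library given IFN-γ and at the edge of detection without it.

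Transfection with siR_Nostrill, without IFN-γ, shifted the members far less, and none passed the adjusted threshold in edgeR. The count was 0 of 8, against 0.218% of all genes tested (26 of 11900). At an unadjusted p below 0.05, 3 members were higher (Rtp4, Xaf1 and Bst2) and 1 was lower (Samhd1), against 6.19% of all genes as higher and 7.61% as lower. In 7 of 8 members the log2 fold change was above 0, though for Rsad2, Cmpk2 and Ifi44 it rests on few counts. The median of the members was 0.73 (0.53 with the length trend removed), beside 0.0051 for all genes. Over the 5 members tested at a mean of at least 5 CPM, which leaves out Rsad2, Cmpk2 and Ifi44, it was 0.68. By FPKM the groups did not overlap for Rtp4, Xaf1 and Bst2, which were higher (10.2% of all genes), and for Samhd1, which was lower (6.94% of all genes). With TPM, the same kind of value rescaled to a common total, in place of FPKM, Ifi35 no longer overlapped and Samhd1 did.

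Rtp4 came nearest to a call. Its siR_Nostrill libraries held 16.1, 13.7 and 12.7 FPKM, all above the highest siR_Ctrl library, for a log2 fold change of 1.05 (SE 0.19, unadjusted p = 2e-04, adjusted p = 0.0693, edgeR). DESeq2's Wald test gave an adjusted p of 8.19e-05, and limma on log2(FPKM + 1), which tests a log2 difference of 1.0 on that scale, gave 0.0212. Over the 12 fits that leave out 1 library the log2 fold change ranged from 0.87 to 1.19, with no call in edgeR. Rtp4 is short, and 0.27 of its log2 difference is the difference of the length trend at 928 bases. With that trend removed the log2 fold change was 0.79 (SE 0.12, adjusted p = 0.00290, edgeR).

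Samhd1 was the one member with a value below 0, and it did not pass in edgeR. Its siR_Nostrill libraries held 31.2, 30.1 and 36.2 FPKM, all below the lowest siR_Ctrl library at 38.9 FPKM. The log2 fold change was -0.36 (SE 0.084, unadjusted p = 0.00109, adjusted p = 0.147, edgeR). It passed in DESeq2's Wald test (adjusted p = 0.0023) and, at -0.29, with the length trend removed (adjusted p = 0.0157, edgeR). The value stayed between -0.41 and -0.29 whichever library was left out. IFN-γ moved Samhd1 in the opposite direction, and by more.

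Bst2 held 100.2, 111 and 89.9 FPKM in siR_Nostrill cells, each above the siR_Ctrl libraries. Its log2 fold change was 0.78 (SE 0.26, unadjusted p = 0.0127, adjusted p = 0.281, edgeR). As the shortest member it carries the largest share of the length trend, 0.35 on the log2 scale, and with the trend removed 0.46 remained (SE 0.084, adjusted p = 0.00931, edgeR). Leaving out single libraries moved the value with the trend left in from 0.57, without siR_Ctrl replicate 1, to 0.91. DESeq2's Wald test did not call Bst2.

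Xaf1 held 5.34, 5.24 and 4.39 FPKM in siR_Nostrill cells, above the 2.09 to 3.99 FPKM of siR_Ctrl cells. Its log2 fold change was 0.67 (SE 0.20, unadjusted p = 0.00652, adjusted p = 0.225, edgeR), and 0.60 with the length trend removed (adjusted p = 0.0561, edgeR). Ifi35 held 37.2, 37.0 and 29.7 FPKM, and the last of these lies within the siR_Ctrl range (log2 fold change 0.45, 95% interval -0.071 to 0.98, adjusted p = 0.383, edgeR). The Ifi35 value was 0.25 with the length trend removed (adjusted p = 0.225, edgeR) and 0.24 without siR_Ctrl replicate 1.

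The low class was at the limit of the depth. Rsad2 had 12, 5 and 20 counts in siR_Nostrill cells against 4 to 8 in siR_Ctrl cells, and the groups overlapped. Its ratio was 2.18 (counting interval 1.20 to 4.12), while the log2 fold change of 1.12 had a 95% interval from -0.031 to 2.27 once the spread between libraries was included (adjusted p = 0.36, edgeR), and was 0.65 without siR_Nostrill replicate 3. Cmpk2 had 1, 2 and 1 counts and Ifi44 had 1, 3 and 6 counts. A difference of Cmpk2 or Ifi44 was not detectable at this depth, with ratios of 4.0 (0.396 to 197) and 1.11 (0.406 to 3.09). The fitted log2 fold change of Cmpk2, 1.69, was 3.56 without siR_Ctrl replicate 3, the library with the 1 count of that group.

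**Figure D2:**
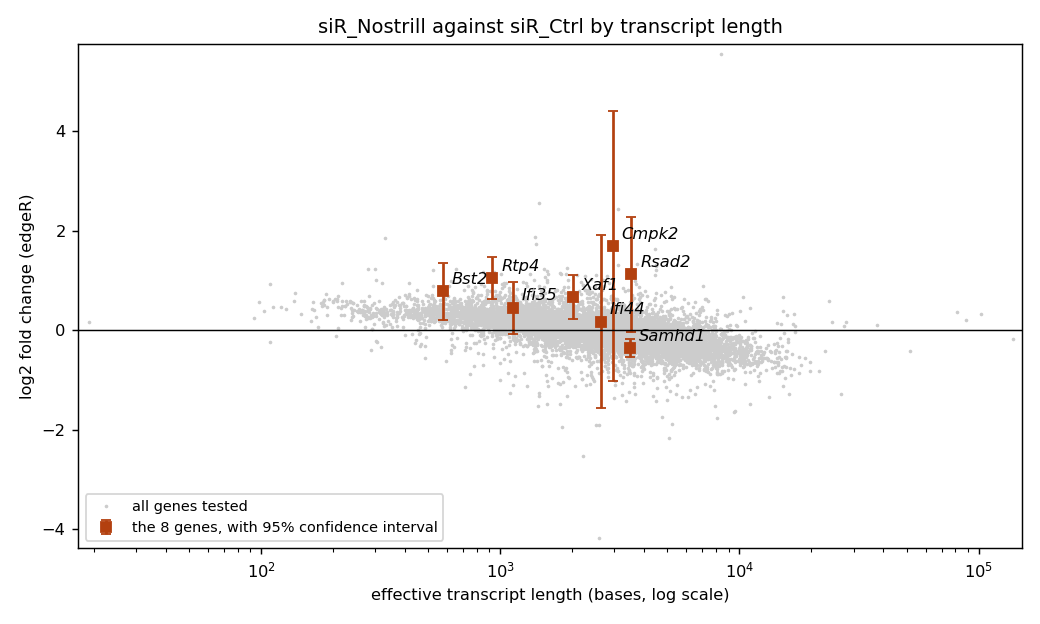
Log2 fold change of siR_Nostrill against siR_Ctrl without IFN-γ (vertical axis) by effective transcript length in bases (horizontal axis, log scale); grey points are the 11900 genes tested, squares the 8 members with 95% confidence intervals. Shorter genes lie higher, with a Spearman correlation of -0.706 across genes; Rtp4 lies at 1.05 and Samhd1, one of the long members, at -0.36.

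Both effects are measured against the same 3 siR_Ctrl libraries, so they are given side by side and the difference was tested directly, as siR_Ctrl + IFN-γ against siR_Nostrill. All 8 members were higher with IFN-γ than with siR_Nostrill, and 8 of 8 were called in edgeR, against 5.29% of all genes as higher. Rsad2, Cmpk2 and Ifi44 passed the filter only through the groups with IFN-γ, so their calls are only a description. Of the high class 5 of 5 were called, with a median log2 difference of 2.23. For Xaf1 the log2 fold changes against siR_Ctrl were 3.73 for IFN-γ and 0.67 for siR_Nostrill, and the difference was 3.06 (95% interval 2.64 to 3.49). For Rtp4 they were 3.50 and 1.05, with a difference of 2.45 (2.03 to 2.86). For Samhd1 they were 1.87 and -0.36, with a difference of 2.23 (2.04 to 2.42). The intervals of the high class lay clear of 0, and that of Bst2 came closest, at 1.12 (0.54 to 1.69).

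The high class was also set on the FPKM scale, where siR_Nostrill cells stood at 26.7% of the IFN-γ step above siR_Ctrl for Bst2, 13.6% for Ifi35, 10.2% for Rtp4 and 6.20% for Xaf1. For Samhd1 the value was -9.42%. By TPM the values were 22.6% for Bst2, 9.42% for Ifi35, 8.90% for Rtp4, 5.06% for Xaf1 and -14.2% for Samhd1. From the fold changes with the length trend removed they were 16.8% for Bst2, 7.80% for Ifi35, 7.87% for Rtp4, 4.24% for Xaf1 and -6.43% for Samhd1. With 1 library left out, the value of Ifi35 was 8.37% by FPKM and 6.19% by TPM without siR_Ctrl replicate 1, and that of Samhd1 by TPM was -7.30% without the same library. In the low class the share rests on few counts, and for Rsad2 it was 22.1% by FPKM, from 9.64% without siR_Nostrill replicate 3 to 34.3% without siR_Nostrill replicate 2. No test was made of differences between the members in this share, and the order of Ifi35 and Rtp4 changed with the scale.

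In edgeR with the length trend left in, the direct difference was the least firm for Bst2 and Rsad2. In a fit of only the groups compared, Bst2 had an adjusted p of 0.0576 and Rsad2 of 0.0619 (edgeR). Bst2 also missed the threshold without siR_Ctrl + IFN-γ replicate 2 (adjusted p = 0.0547, edgeR) or without siR_Nostrill replicate 1, 2 or 3 (0.0791, 0.0619 and 0.0932). With the length trend removed, the Bst2 difference was 1.23 (SE 0.081, adjusted p = 5.09e-08, edgeR). DESeq2's Wald test called it with the trend left in (adjusted p = 0.000828). Rsad2, with a difference of 1.57, passed the filter only through the groups with IFN-γ, so its calls are only a description. Its call was lost when any 1 library of siR_Ctrl + IFN-γ was left out (adjusted p = 0.0823, 0.0603 and 0.0958, edgeR). The same held without siR_Nostrill replicate 1 or 2 (0.113 and 0.110) or siR_Nostrill + IFN-γ replicate 3 (0.0539).

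**Figure D3:**
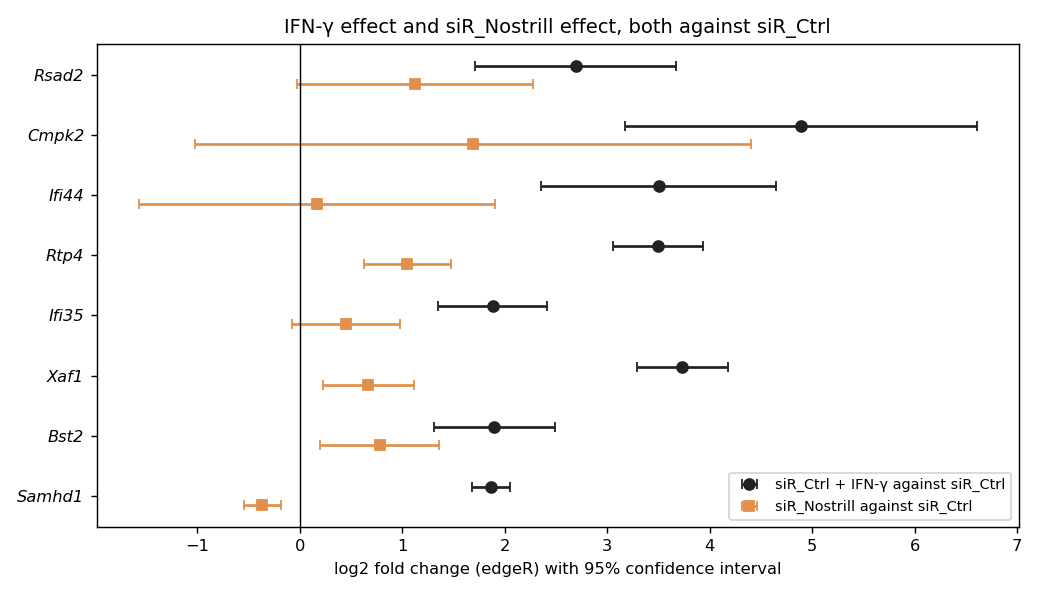
Log2 fold change from edgeR with its 95% confidence interval (horizontal axis) for the 8 measured genes (vertical axis); circles are siR_Ctrl + IFN-γ and squares siR_Nostrill, both against the same siR_Ctrl libraries. The IFN-γ values run from 1.87 to 4.89 (Cmpk2, on 40 counts against 1). The siR_Nostrill values run from -0.36 to 1.69 (Cmpk2, on 4 counts against 1). Samhd1 is the one gene whose siR_Nostrill value lies below 0.

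IFN-γ also raised the members in siR_Nostrill cells. Of 8 members, 7 passed as higher in edgeR, against 5.24% of all genes. The calls of Rsad2, Cmpk2 and Ifi44, which passed the filter only through the groups with IFN-γ, are only a description here too. In the high class 4 of 5 passed, with a median log2 fold change of 2.22. In FPKM the libraries with IFN-γ lay above those without it for every gene of the high class, as they did for 16.3% of all genes. They did so for Rsad2, Cmpk2 and Ifi44 as well, again only as a description. Rtp4 reached 79.9, 97.1 and 93.3 FPKM, Xaf1 33.0, 39.0 and 43.3 FPKM and Samhd1 160.3, 156 and 142 FPKM, and these libraries overlapped those of siR_Ctrl + IFN-γ. Bst2 reached 185, 194 and 216 FPKM, with a log2 fold change of 0.96 and an adjusted p of 0.0509 (edgeR) that was 0.00612 in DESeq2's Wald test. With the length trend removed the log2 fold change was 1.25 (adjusted p = 3.96e-08, edgeR). Rsad2 reached 24, 53 and 38 counts (log2 fold change 1.62, adjusted p = 0.0278, edgeR) and lost its call without siR_Nostrill replicate 1 or 2 (adjusted p = 0.0855 and 0.107, edgeR) or siR_Nostrill + IFN-γ replicate 2 or 3 (0.128 and 0.077). Cmpk2 reached 35, 16 and 16 counts, Ifi44 53, 46 and 45 counts and Ifi35 74.6, 90.9 and 89.9 FPKM.

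With IFN-γ present, siR_Nostrill made no detectable difference to the members. In edgeR 0 of 8 passed, against 0.429% of all genes, 0 had an unadjusted p below 0.05 (14.5% of all genes), and DESeq2's Wald test also called 0. The median log2 fold change was 0.079. With 1 library left out it ran from 0.022 without siR_Nostrill + IFN-γ replicate 2 to 0.21 without siR_Ctrl + IFN-γ replicate 2. It was -0.0093 over the 5 members tested at a mean of at least 5 CPM. The intervals were narrow for Samhd1 (-0.0083, 95% interval -0.19 to 0.17), Rtp4 (0.11, -0.28 to 0.49) and Xaf1 (0.12, -0.27 to 0.50). They were wider for Bst2 (-0.16, -0.72 to 0.41) and Cmpk2 (0.73, -0.078 to 1.54), whose value was 0.27 without siR_Nostrill + IFN-γ replicate 1, the library with 35 counts. By FPKM, the groups did not overlap for Cmpk2 and Ifi44, both higher with siR_Nostrill (14.6% of all genes), while by TPM those of Ifi44 overlapped.

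Whether the response to IFN-γ itself differed between the siRNAs was tested as the interaction. In edgeR 0 of 8 members passed, as did 0 of 11900 genes, and DESeq2's Wald test called 0 members. At an unadjusted p below 0.05 there were 3 members, against 10.7% of all genes (1277). The rise with IFN-γ was smaller in siR_Nostrill cells for Rtp4 by 0.94 (95% interval of the interaction -1.52 to -0.37, unadjusted p = 0.00386, adjusted p = 0.43, edgeR) and for Bst2 by 0.94 (-1.74 to -0.13, unadjusted p = 0.0269, edgeR), and larger for Samhd1 by 0.36 (0.097 to 0.61, unadjusted p = 0.0114). The Bst2 interaction ran from -1.12 to -0.59 with 1 library left out, the latter without siR_Ctrl + IFN-γ replicate 2 (unadjusted p = 0.0625, edgeR). The interaction uses the same siR_Ctrl and siR_Nostrill libraries as the comparison without IFN-γ. With the length trend removed the adjusted p was 0.143 for Rtp4, 0.143 for Bst2 and 0.173 for Samhd1 (edgeR), with values of -0.58, -0.43 and 0.24.

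The other genes of the pathway were taken from fixed lists. Of 26 further ISGF3-linked genes, all tested, 25 passed as higher with IFN-γ in siR_Ctrl cells, against 4.71% of all genes. Oas1a, Oas2, Oas3 and Phf11d passed the filter on low counts only through the groups with IFN-γ and had to differ. Of the other 22, 21 passed as higher, with a median log2 fold change of 1.62. With siR_Nostrill alone 3 of the 26 passed as higher and 0 as lower, 18 were higher at an unadjusted p below 0.05, and the median was 0.71. All genes gave 0.218% as called and 6.19% as higher at that unadjusted p. The medians of these genes and of the 8 members were 0.62 and 0.53 with the length trend removed, and 0.28 and 0.28 in limma on log2(FPKM + 1) without a filter, a scale that understates the change of low genes. The 3 were Oasl2, Ifit1 and Oasl1, relatives of the oligoadenylate synthetases and a sensor of uncapped RNA. The number of called genes changed with the fit: 7 in DESeq2's Wald test, 12 with the length trend removed, 0 in a fit of only the groups compared, and from 0 to 4 with 1 library left out. It fell to 0 when the library left out was siR_Ctrl replicate 1, siR_Nostrill + IFN-γ replicate 2 or any of siR_Nostrill, and to 1 when it was siR_Ctrl replicate 2, siR_Ctrl + IFN-γ replicate 1 or 3, or siR_Nostrill + IFN-γ replicate 1 or 3. The median ranged from 0.63 to 0.81 over those fits. Against siR_Ctrl + IFN-γ, 0 of the 26 passed in siR_Nostrill + IFN-γ cells, with 7 at an unadjusted p below 0.05, all higher, against 14.5% of all genes in either direction. The number that passed was 3 in DESeq2's Wald test and 6 with the length trend removed. It was 1 with a mean of at least 5 CPM, in each of the limma fits on FPKM, and without siR_Ctrl replicate 1 or 3.

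For genes linked to GAS sites, those mainly tied to IFN-γ, the counts were as follows. Of 12 tested, of 15 listed, 12 rose with IFN-γ in siR_Ctrl cells, against 4.71% of all genes. Cxcl9 and Ciita passed the filter only through the groups with IFN-γ and had to differ. All of the other 10 passed as higher, with a median log2 fold change of 5.09, beside 1.90 for the high class of the members. With siR_Nostrill alone 0 passed in edgeR, 4 were higher at an unadjusted p below 0.05 (6.19% of all genes), and the median was 0.19. DESeq2's Wald test called 2 as higher, and 1 was called in edgeR without siR_Ctrl replicate 3, where the median was 0.44. With IFN-γ present 0 passed in edgeR, with 3 higher at an unadjusted p below 0.05 (14.5% of all genes in either direction), and 2 passed as higher with the length trend removed. The difference between the lists was not tested.

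**Figure D4:**
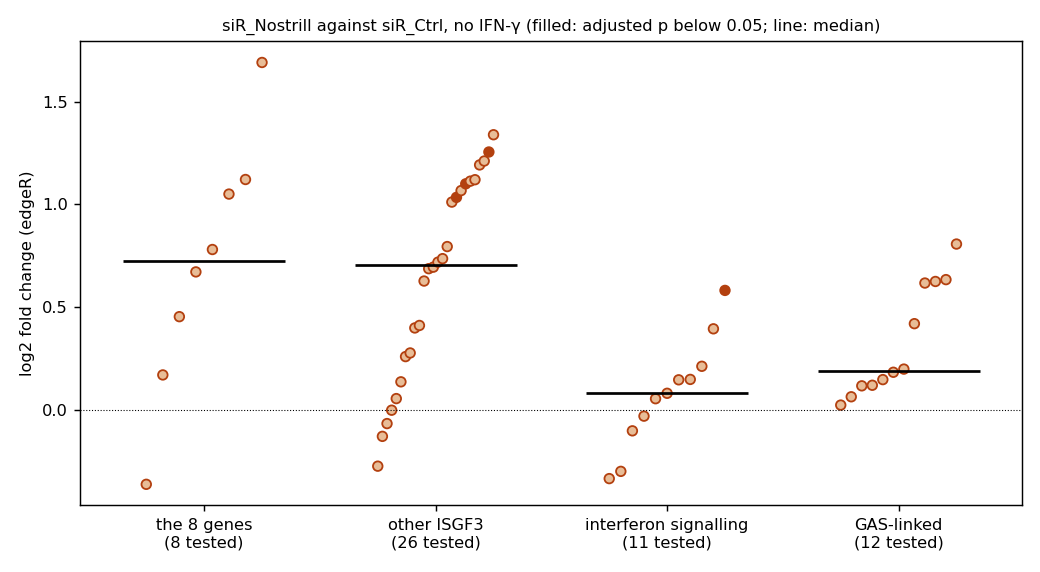
Log2 fold change of siR_Nostrill against siR_Ctrl without IFN-γ (vertical axis) for the genes of each list (horizontal axis); each point is a gene, filled where its adjusted p in edgeR is below 0.05, and the bar is the median of the list. The members (median 0.73) and the other ISGF3-linked genes (0.71) have higher medians than the signalling (0.080) and GAS-linked (0.19) genes. In limma on log2(TPM + 1) the medians were 0.55, 0.24, -0.10 and 0.014 in the same order. That fit has its own filter and scale and tested 5, 24, 11 and 11 genes of these lists.

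The signalling list runs from ligands to transcription factors and holds the receptor chains of type I, type II and type III interferon, and 11 of its 17 genes were tested. IFN-γ raised 4 of them in siR_Ctrl cells (4.71% of all genes), among them Stat2, from 6.60 ± 0.73 to 57.4 ± 8.70 FPKM, and Irf9, from 6.16 ± 0.50 to 29.5 ± 1.14 FPKM (SD, n = 3 each). With siR_Nostrill alone 1 of 11 passed (0.218% of all genes), Irf9, the DNA-binding subunit of ISGF3. Irf9 stood at 6.16 ± 0.50 FPKM in siR_Ctrl and 9.14 ± 1.09 FPKM in siR_Nostrill cells (SD, n = 3 each), and its log2 fold change was 0.58 (SE 0.091, adjusted p = 0.0358, edgeR). This call was kept in 2 of the 12 fits that leave out 1 library, those without siR_Ctrl + IFN-γ replicate 2 or 3, although the value stayed between 0.52 and 0.67, and it was lost in a fit of only the groups compared (adjusted p = 0.462, edgeR), with the replicate number as a block (0.0640) and in the 4 limma fits (0.0538 to 0.490). Stat2 had a log2 fold change of 0.21 with siR_Nostrill alone (adjusted p = 0.361, edgeR). The ligand Ifnb1 had 0 counts in all siR_Ctrl and siR_Ctrl + IFN-γ libraries. It had 0, 1 and 1 counts in siR_Nostrill cells and 0, 1 and 1 in siR_Nostrill + IFN-γ cells, too few to test. With IFN-γ present, Ifngr2, a chain of the IFN-γ receptor, was higher in siR_Nostrill cells (log2 fold change 0.54, adjusted p = 0.0375, edgeR), a call kept in 3 of the 12 fits that leave out 1 library, those without siR_Ctrl replicate 1 or siR_Nostrill replicate 1 or 3. It was lost in a fit of only the groups compared (adjusted p = 0.157, edgeR), with the block (0.0503) and in limma on log2(TPM + 1) (0.0625). Without IFN-γ, Ifngr2 had a log2 fold change of 0.39 (adjusted p = 0.150, edgeR), which DESeq2's Wald test called (adjusted p = 0.00521).

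The genes whose pattern over the 12 libraries was most like the mean standardised log2 level of the members were Tapbp, Tnfrsf1a, C1ra, Ly6a, Myd88, Ube2l6, Ly6c1 and Cxcl10, with Pearson correlations from 0.995 to 0.997. The libraries fall into groups with and without IFN-γ, so these correlations mostly describe that step and no p is given. Among the members, Xaf1 (0.998) and Rtp4 (0.994) followed that mean most closely and Ifi44 (0.922) least.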

How the data were processed

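Polyadenylated RNA of 12 libraries (4 groups of 3) had been selected with oligo(dT) and sequenced by DNBSEQ. Per the study's methods and processing notes, HISAT2 and Bowtie2 served as aligners and GRCm38.p6 as the genome. The authors deposited, per gene and library, an estimated count, an FPKM and a TPM value. The counting tool is not named in the sources. Estimated counts, exactly whole as deposited (tolerance 0) for 90.6% to 91.6% of genes, were rounded and tested with edgeR 4.0.16 in R 4.3.3 (quasi-likelihood test, TMM, default filter on low counts, 1 fit over all libraries, adjustment by Benjamini-Hochberg, threshold 0.05). The fit was checked on simulated counts drawn without a length trend, so that check does not cover the trend in these libraries. FPKM sums differed up to 1.39 times between libraries. Alternatives were DESeq2 1.42.0, limma 3.58.1, other filters, size factors, fewer groups, a replicate block, each library left out, and removal of the length trend (lowess, span 0.3). Named genes were all members, up to 3 called genes of each fixed list with the largest change, and the 8 genes most like the members. Members, lists and tests were chosen with earlier results of these data known. The methods speak of biological triplicates, and the labels do not say whether libraries came from separate cultures, so p-values measure the spread between these libraries. The values of 1 gene of the signalling list are not reported here.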

Additional observations from a re-analysis of the deposited data

How the results depend on the processing

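Rsad2, Cmpk2 and Ifi44 were not tested under the stricter filters, so with a mean of at least 5 CPM the number of members called was 5 (of 5) for IFN-γ in siR_Ctrl cells, 4 (of 5) in siR_Nostrill cells and 5 for IFN-γ against siR_Nostrill. At a mean FPKM of 0.5 or more, limma on log2(FPKM + 1), on log2(FPKM + 0.1) and, chosen after seeing the data, on log2(TPM + 1) gave 5 of 5 in siR_Ctrl cells and for IFN-γ against siR_Nostrill. Limma on log2(FPKM + 1) without the filter gave 7 of 8 for both, with Cmpk2 lost (adjusted p = 0.0636 and 0.0766). A fit of only the groups compared gave 5 of 7 for the latter. For siR_Nostrill without IFN-γ, where the reported number was 0, DESeq2's Wald test called 2, removal of the length trend 3, and each of the limma fits 1. Leaving out each library gave 8 members for IFN-γ in siR_Ctrl cells, 6 to 8 in siR_Nostrill cells and for IFN-γ against siR_Nostrill, and 0 for siR_Nostrill without or with IFN-γ and the interaction.

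Values that changed sign were not called in any fit. For siR_Nostrill with IFN-γ these were Bst2 (0.022 with the length trend removed, 0.025 in limma on log2(TPM + 1)), Ifi35 (0.0042 in the latter) and Samhd1 (0.052 in limma on log2(FPKM + 1) with and without the filter, 0.052 on log2(FPKM + 0.1) and 0.13 on log2(TPM + 1)), and for the interaction Cmpk2 (0.16 in limma without a filter). With single libraries left out, siR_Nostrill with IFN-γ ranged from -0.34 to 0.20 for Bst2, -0.31 to 0.083 for Ifi35, -0.26 to 0.31 for Rsad2 and -0.035 to 0.024 for Samhd1. Ifi44 ranged from -0.48 to 1.62 without IFN-γ and from -1.17 to 0.93 for the interaction.

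In their deviations from the group mean, same-numbered libraries correlated from -0.655 to 0.862, and 8 of 18 pairs were over 0.1. Libraries of unlike number correlated from -0.903 to 0.884. These deviations also hold the length trend of each library, so the correlations cannot show whether replicate numbers pair the libraries. With the replicate number as a block, the members called were 8, 8, 0, 0, 0 and 8 for IFN-γ in siR_Ctrl and in siR_Nostrill cells, siR_Nostrill without and with IFN-γ, the interaction, and IFN-γ against siR_Nostrill. Over all genes, removal of the length trend gave 1323 calls against 649 for IFN-γ in siR_Ctrl cells, 2215 against 807 in siR_Nostrill cells, 422 against 26 and 1521 against 51 for siR_Nostrill without and with IFN-γ, and 1768 against 813 for IFN-γ against siR_Nostrill. DESeq2 gave 1330 for IFN-γ in siR_Nostrill cells and 265 and 596 for siR_Nostrill without and with IFN-γ, and a fit of only the groups compared gave 341, 1997, 0, 0 and 494 for the 5 in turn. For siR_Nostrill with IFN-γ, all-gene calls were also 30 without a filter, 105 at 5 CPM, 32 with the block, and 135, 114 and 118 in limma on log2(FPKM + 1), log2(FPKM + 0.1) and without a filter. Limma on log2(TPM + 1) gave 318 for IFN-γ in siR_Ctrl cells, 8 for siR_Nostrill without IFN-γ (17 on FPKM without a filter) and 422 for IFN-γ against siR_Nostrill. Leaving out single libraries gave 0 to 37 and 0 to 72 for siR_Nostrill without and with IFN-γ, 491 to 1138 for IFN-γ in siR_Nostrill cells and 518 to 982 for IFN-γ against siR_Nostrill. The cause of these differences was not tested. Leaving out libraries for the share of the IFN-γ step was chosen after seeing the data.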
